A study of Mus musculus with 16 samples.

Results

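The genes described here are 39 genes of fatty acid oxidation, in mitochondria and in peroxisomes, out of 24421 genes in the expression table of mouse colon. They were chosen by symbol from a list of the enzymes, carriers and electron acceptors of the pathway, a list drawn up with earlier results of these data known, and all 39 were found. By step they comprise 4 acyl-CoA synthetases (activation), 6 genes of the carnitine shuttle, 15 enzymes of the mitochondrial spiral, 3 genes of electron transfer, 9 peroxisomal genes and 2 thioesterases. The study sequenced RNA from the colon of C57BL/6 mice aged 8 weeks. DIEC mice (NCoR1DIEC, genotype labelled ko) carry a deletion of NCoR1 in intestinal epithelial cells, and F/F mice (NCoR1F/F, labelled wild type) are their controls. No source used here names the Cre line behind the deletion. Mice had 2.5% dextran sulfate sodium (DSS), a polymer that damages the epithelium of the colon, or plain water (naive), and RNA of the DSS groups was taken on day 3 after DSS. The 4 groups are therefore DIEC DSS, F/F DSS, DIEC naive and F/F naive. Each group had 4 libraries, and each library held the pooled RNA of 3 mice, so the error given below is the spread between pools and not between animals.

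Fatty acids are first joined to coenzyme A by acyl-CoA synthetases. Long-chain acyl-CoA enters mitochondria through the carnitine shuttle, is shortened in the spiral by repeated rounds of dehydrogenation, hydration, a further dehydrogenation and thiolytic cleavage, and passes its electrons to the respiratory chain partly through the electron transfer flavoprotein. Peroxisomes shorten very long and branched chains by a related route. Many genes of both routes are known targets of the PPAR nuclear receptors, and NCoR1 is a corepressor, a protein that links such receptors to histone deacetylase 3. The colon epithelium is known to draw much of its energy from the oxidation of butyrate, a short-chain fatty acid made by gut bacteria.

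Values below are scaled reads, that is, reads per gene divided by 1 factor per library so that all libraries have the same total. Libraries held 19957413 to 34733832 reads on genes. Ncor1, the deleted gene, had 1343 to 1663 scaled reads in DIEC DSS libraries against 3689 to 4078 in F/F DSS libraries, and 1756 to 1978 in DIEC naive against 3445 to 3730.4 in F/F naive libraries, so the genotypes did not overlap. All 8 epithelial markers examined, such as Epcam and Cdh1, had reads in all 4 groups. On the second principal component of all genes DIEC DSS 3 lay at -60.4, against -17.2 to 8.6 in the other DIEC DSS libraries. Pancreatic acinar transcripts, a foreign signal in colon, made up 0.153% to 1.88% of the reads in F/F naive 3 and 4 and in DIEC naive 1 and 2, and at most 0.00158% in any DSS library. Scaling by TMM, which sets the bulk of the genes equal between libraries, moved the median log2 change of all genes by 0.19 in DIEC DSS against F/F DSS, by 0.101 in F/F DSS against F/F naive, by 0.254 in DIEC DSS against DIEC naive and by 0.153 in the difference between the DSS responses. In DIEC naive against F/F naive the shift was 0.037. Changes are therefore given on the deposited scale and, where it matters, on the TMM scale too. A gene was called where its adjusted p was under 0.05 in the limma model over all 18267 genes tested, and an error after a log2 change is its standard error.

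Many of these genes were higher in DIEC than in F/F colon, among them the mitochondrial acylcarnitine carrier Slc25a20, the long-chain dehydrogenase Acadl, the peroxisomal importer Abcd3 and the subunits of the electron transfer flavoprotein. In DSS colon 14 of the 39 genes were called higher in DIEC than in F/F, or 35.9%, where 3.28% of all genes tested were called higher. In the same comparison 8 of 39, or 20.5%, were called lower, against 26.0% of all genes. In naive colon 17 of the 39 were called higher in DIEC, or 43.6%, against 1.41% of all genes, and 0 were called lower, against 0.821%. For these lower calls in naive colon, limma found 2 genes at an unadjusted p under 0.05, edgeR called 0 and DESeq2 called 1, Acsl5. The median log2 change of the 39 genes was 0.11 in DSS colon, where that of all genes was -0.20, and 0.28 in naive colon, where that of all genes was -0.05. On the TMM scale 19 genes were called higher and 2 lower in DSS colon, against 6.69% and 7.34% of all genes, and 19 higher and 0 lower in naive colon, against 1.77% and 0.678%. Under both scalings together 14 genes were higher and 2 lower in DSS colon, where 3.28% and 7.35% of all genes were, and 17 higher and 0 lower in naive colon, where 1.41% and 0.668% were. Without regard to the test, all DIEC libraries lay above all F/F libraries for 10 members in DSS colon and below for 7, where 3.1% and 21.9% of all genes did. In naive colon they lay above for 21 and below for 0, where 4.33% and 6.37% of all genes did. In the authors' deposited table, at an adjusted p under 0.05, 15 of the 39 were higher and 0 lower in DSS colon, and 12 higher and 0 lower in naive colon, so the 8 lower calls in DSS colon have no counterpart there. The share of all genes called in the authors' table was not counted, so these counts have no background beside them. In bulk colon a change in the number of cells of a type and a change in the RNA per cell cannot be told apart.

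**Figure D1:**
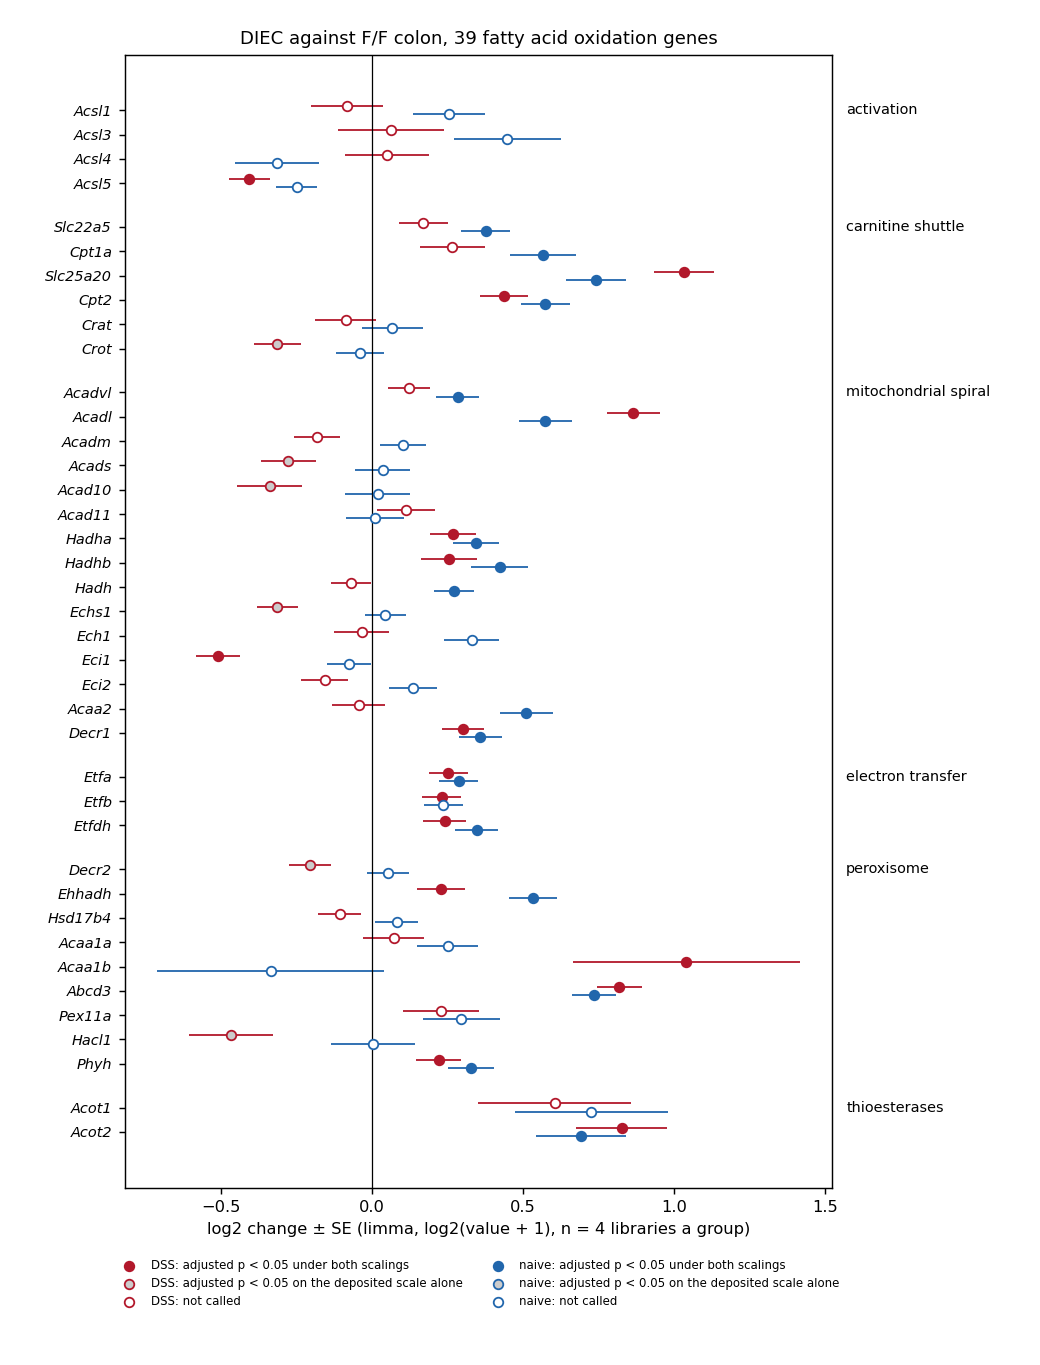
Log2 change of the 39 genes between DIEC and F/F colon, grouped by step, with DSS colon in red and naive colon in blue; points are limma estimates from 4 libraries a group and bars are standard errors. Filled points passed an adjusted p of 0.05 under both scalings, grey points on the deposited scale alone, and open points were not called; 14 filled points lie right of 0 in DSS colon and 17 in naive colon.

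Markers of colonocytes, such as Slc26a3, Car1 and Aqp8, moved with genotype in part. Their summed level was 363527 to 495888 in DIEC DSS against 283216 to 359946 in F/F DSS libraries, and 285776 to 387970.1 in DIEC naive against 250948 to 295013 in F/F naive libraries. Of the 8 colonocyte markers 3 were called higher in DSS colon and 0 in naive colon, where limma had 2 at an unadjusted p under 0.05 and edgeR and DESeq2 called 1 each. Of the 8 markers of epithelium as a whole 1 was called higher in DSS colon and 0 in naive colon, where limma had 1 at an unadjusted p under 0.05 and edgeR and DESeq2 called 0. On the TMM scale 4 colonocyte and 3 epithelial markers were called higher in DSS colon, and 1 and 0 in naive colon. Their median TMM log2 changes in DSS colon were 0.41 and 0.26, where that of the 39 genes was 0.30. The epithelial sums were 392869.9 to 437094 in DIEC DSS against 383276 to 406160.1 in F/F DSS, and 287575 to 350063 in DIEC naive against 299725 to 340737 in F/F naive. The immune cell sums were 1279 to 6491 in DIEC DSS against 3552 to 5034 in F/F DSS, and 3884 to 4967 in DIEC naive against 5469 to 7061 in F/F naive, where the groups did not overlap. Smooth muscle sums also stood apart in naive colon, at 155984 to 183269.9 in DIEC against 185838 to 245336 in F/F, and overlapped in DSS colon. Adipocyte markers had a median log2 change of 1.29 in DSS colon, with 7 of 8 above 0, and 0.27 in naive colon, with 8 of 8 above 0, though their sums overlapped in both drinks. Of the 8 markers in each of these 3 lists limma called 1 immune marker lower in DSS colon and no other on the deposited scale, with 2 immune and 4 smooth muscle markers lower at an unadjusted p under 0.05 in naive colon, where edgeR and DESeq2 called 0. In DSS colon edgeR called 1 smooth muscle marker higher, and DESeq2 called 1 smooth muscle and 1 adipocyte marker higher. No marker of these 5 lists was at 0 in all libraries of a group. The part of cell composition in the changes below was not tested.

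Among the 4 synthetases that activate fatty acids, 0 were called higher in DIEC in either drink and 1, Acsl5, was called lower in DSS colon. All genes tested had 3.28% called higher and 26.0% lower in DSS colon, and 1.41% higher in naive colon. For the higher calls, limma had 0 in DSS and 2 in naive colon at an unadjusted p under 0.05, and edgeR and DESeq2 called 0. Acsl5, a long-chain acyl-CoA synthetase abundant in intestine, had 2546, 2391, 2434 and 2534 scaled reads in DIEC DSS against 3234, 3205, 3255 and 3441 in F/F DSS libraries. In naive colon it had 3435, 3474, 4200.5 and 3654 in DIEC and 4117, 4455, 4538 and 4390.1 in F/F. The DIEC DSS libraries all lay below the F/F DSS libraries, whereas the naive groups overlapped. Its log2 change was -0.41 ± 0.07 in DSS colon, with adjusted p = 0.000347, and -0.22 on the TMM scale, and it was -0.25 ± 0.07 in naive colon, with adjusted p = 0.0633. Acsl3, a synthetase of the endoplasmic reticulum and lipid droplets, had the largest difference of the step in naive colon, with 10629, 13092, 14478 and 14081 in DIEC against 11706, 8461, 7759 and 10669 in F/F. These groups overlapped, and the log2 change of 0.45 ± 0.18 was not called (adjusted p = 0.252). Acsl1, the main synthetase of tissues that burn fat, had a log2 change of -0.08 in DSS colon, or 0.11 on the TMM scale, and 0.25 in naive colon. Acsl4, which prefers arachidonate, had 0.05 in DSS and -0.31 in naive colon, and none of these was called.

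In the carnitine shuttle 2 of 6 genes were called higher and 1 lower in DSS colon, and 4 of 6 were called higher in naive colon. The shares over all genes tested were 3.28% higher and 26.0% lower in DSS colon, and 1.41% higher in naive colon. Slc25a20 encodes the carnitine-acylcarnitine translocase, which carries acylcarnitine across the inner mitochondrial membrane in exchange for free carnitine, and its start region is shown because it had the largest change in expression among the well-expressed members and holds a near match to a receptor site. The window comes from RefSeq on GRCm38.p6, chr9:108661886-108662185, plus strand, and runs from 250 bases before to 50 bases after the transcript start. The file headers name mm9 for the gene models, on which the gene lies on chromosome 9 from 108564429 to 108586972, plus strand. Capitals mark a match on the plus strand, beginning at base 7 of the transcript, to the direct repeat AGGTCANAGGTCA with 2 mismatches.
Slc25a20: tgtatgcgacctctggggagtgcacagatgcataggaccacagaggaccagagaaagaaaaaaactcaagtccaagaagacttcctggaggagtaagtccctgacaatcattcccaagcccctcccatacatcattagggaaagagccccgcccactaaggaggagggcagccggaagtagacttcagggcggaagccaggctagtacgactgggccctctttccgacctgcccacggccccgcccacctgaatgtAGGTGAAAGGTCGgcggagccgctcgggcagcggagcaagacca

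That repeat, DR1, is the kind of site that PPAR and RXR receptors are known to bind as a pair. The promoter table held 37 windows for 35 of the 39 genes, and a DR1 with at most 2 mismatches, searched on both strands, was in 3 of the 37, those of Slc25a20, Etfa and Echs1, against 1268 of all 32841 promoters (3.86%). With at most 1 mismatch it was in 0 of the 37 windows and in 182 promoters (0.554%). The single hexamer AGGTCA, a part of the repeat, was in 5 of 37 windows and in 16.3% of all promoters. The GC box GGGCGG was in 26 of 37 windows and in 35.7% of all promoters. These matches describe the letters of a window of 300 bases and not binding.

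Slc25a20 had 13711, 14129, 14249 and 12308 scaled reads in DIEC DSS libraries, against 7241, 7316, 5926 and 6176 in F/F DSS libraries. In naive colon the DIEC libraries had 10668, 11271, 11206 and 11421, against 5899, 7579, 5727 and 7694 in the F/F libraries. All 8 DIEC libraries lay above all 8 F/F libraries. The change was 2.05-fold in DSS colon (log2 change 1.03 ± 0.10, adjusted p = 1.64e-06) and 1.67-fold in naive colon (log2 change 0.74 ± 0.10, adjusted p = 0.00026).

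Cpt2, the carnitine palmitoyltransferase of the inner membrane, which returns the acyl group to coenzyme A, also rose. It had 4317, 4529, 3986 and 4542 in DIEC DSS against 2980.4, 3696, 3104 and 3080.3 in F/F DSS libraries. The DIEC naive libraries had 3492, 3325, 4008 and 4032 against 2391, 2562, 2479 and 2515 in F/F naive. Neither pair of groups overlapped, and the log2 change was 0.44 ± 0.08 in DSS colon (adjusted p = 0.000683) and 0.57 ± 0.08 in naive colon (adjusted p = 0.000434). Cpt1a, the enzyme of the outer membrane at which the shuttle is controlled by malonyl-CoA, had 14895, 12692, 11668 and 12377 in DIEC DSS against 12356, 12311, 9292 and 9242 in F/F DSS. Its naive values were 9286, 8084, 10434 and 9885 in DIEC against 5883, 6528, 6193 and 6771 in F/F. The DSS groups overlapped and the naive groups did not. The log2 change of Cpt1a was 0.57 ± 0.11 in naive colon (adjusted p = 0.0063), and in DSS colon it was 0.27 ± 0.11, not called on the deposited scale (adjusted p = 0.0727) and called on the TMM scale at 0.46 (adjusted p = 0.00954).

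Slc22a5, the plasma membrane importer of carnitine, had 885, 842, 846 and 801 in DIEC DSS against 770.5, 846, 692 and 697 in F/F DSS. The naive libraries had 1140.3, 1101, 1068 and 1021 in DIEC against 852, 812, 753 and 927 in F/F. Only the naive groups stood apart, and only there was the gene called on the deposited scale (log2 change 0.38 ± 0.08, adjusted p = 0.0153), while in DSS colon the TMM scale called it at 0.36 (adjusted p = 0.00898). Crot, which makes carnitine esters of medium chains in peroxisomes, ran the other way in DSS colon, with 926, 818, 969 and 917 in DIEC against 1188, 1125, 1011 and 1187 in F/F. No DIEC DSS library reached the lowest F/F DSS library, and the log2 change was -0.31 ± 0.08 (adjusted p = 0.00644), but on the TMM scale it was -0.12 and not called (adjusted p = 0.365). In naive colon the log2 change was -0.04 for Crot and 0.07 for Crat, the acetyltransferase of short chains, neither called. Crat in DSS colon was at -0.09, or 0.10 on the TMM scale, and not called either.

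**Figure D2:**
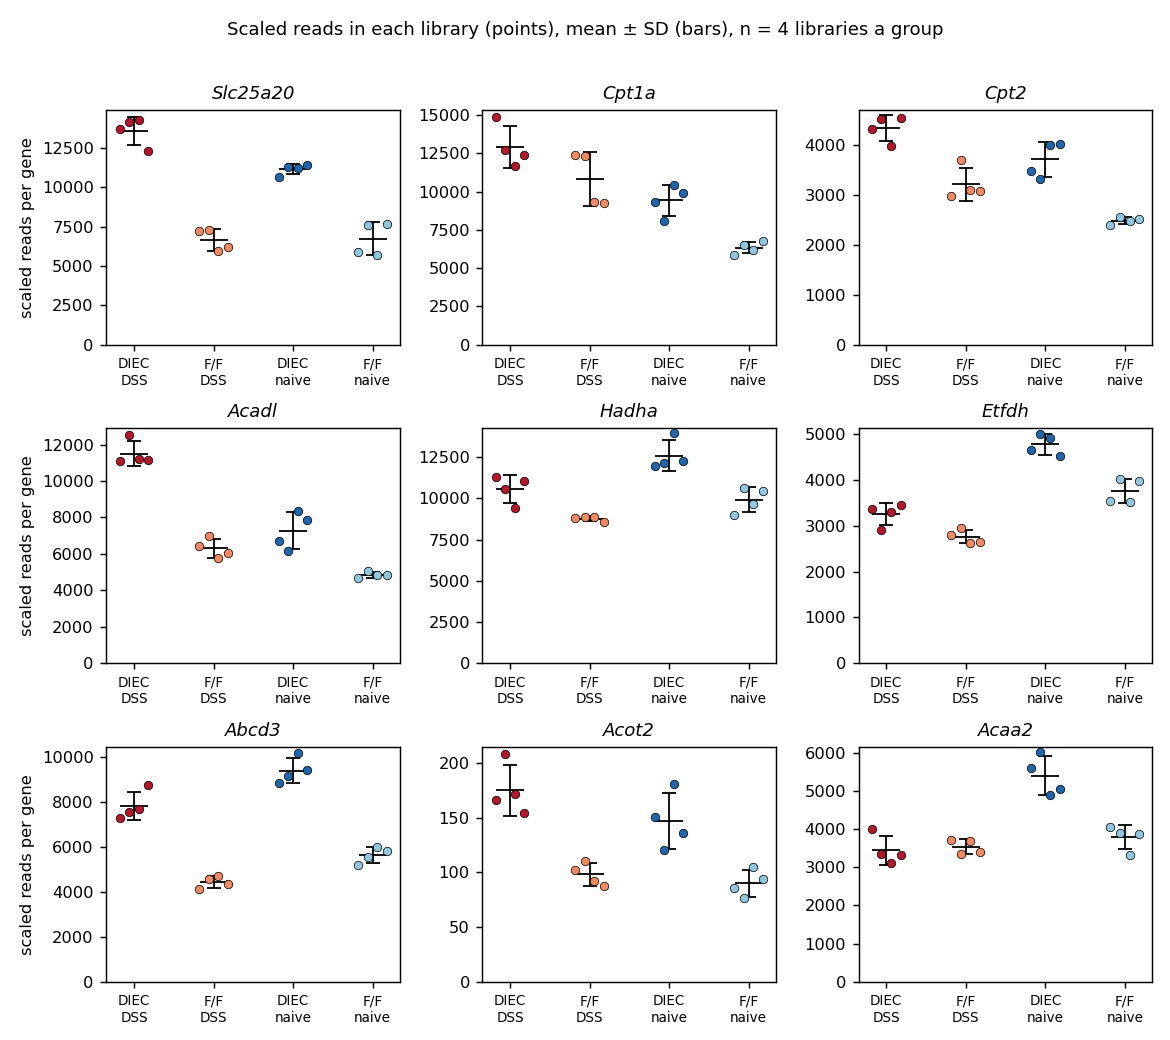
Scaled reads of 9 genes in each of the 16 libraries, by group from left to right DIEC DSS, F/F DSS, DIEC naive and F/F naive; points are libraries, bars are the mean ± SD of 4 libraries, and each axis starts at 0. Slc25a20, Abcd3 and Acot2 separate all 8 DIEC from all 8 F/F libraries, Acadl is highest in the 4 DIEC DSS libraries, and Acaa2 separates the genotypes in naive colon while its DSS groups overlap.

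In the mitochondrial spiral 4 of 15 enzymes were called higher and 4 lower in DSS colon, and 7 were called higher and 0 lower in naive colon. Over all genes tested 3.28% were called higher and 26.0% lower in DSS colon, and 1.41% and 0.821% in naive colon. The share of the step called lower in DSS colon, 26.7%, thus lay near that of all genes. For the lower calls in naive colon limma had 0 at an unadjusted p under 0.05, and edgeR and DESeq2 called 0. The enzymes called higher in DSS colon were the long-chain dehydrogenase Acadl, both subunits of the trifunctional protein and the reductase Decr1, and those called lower were Acads, Acad10, Echs1 and Eci1, of which Eci1 alone was also called on the TMM scale.

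Acadl is the long-chain acyl-CoA dehydrogenase, which acts at the first reaction of the spiral, and it had the largest change of the step. Its start region, from RefSeq on GRCm38.p6 at chr1:66863260-66863559, minus strand, is shown for comparison with that of Slc25a20: it holds no DR1 with at most 2 mismatches. On mm9 the gene lies on chromosome 1 from 66877413 to 66909883, minus strand.
Acadl: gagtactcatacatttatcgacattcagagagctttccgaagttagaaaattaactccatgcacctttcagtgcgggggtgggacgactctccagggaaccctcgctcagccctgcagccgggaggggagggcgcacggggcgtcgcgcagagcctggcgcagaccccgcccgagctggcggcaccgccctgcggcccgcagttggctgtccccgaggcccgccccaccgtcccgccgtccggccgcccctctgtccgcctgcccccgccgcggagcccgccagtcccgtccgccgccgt

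Acadl had 11103, 12513, 11184 and 11162 scaled reads in DIEC DSS libraries, against 6415, 6991, 5799 and 6055 in F/F DSS libraries. In naive colon the DIEC libraries had 6735, 6140.1, 8329 and 7889, against 4673, 5079, 4843 and 4827 in F/F. Neither pair overlapped, and the 4 DIEC DSS libraries were the highest of all 16. The change was 1.82-fold in DSS colon (log2 change 0.87 ± 0.09, adjusted p = 3.32e-06) and 1.49-fold in naive colon (log2 change 0.57 ± 0.09, adjusted p = 0.000963). For the dehydrogenases of other chain lengths the changes were smaller. The log2 change of Acadvl (very long chains) was 0.12 in DSS and 0.28 in naive colon, the second called with adjusted p = 0.0371. For Acadm (medium chains) it was -0.18 in DSS, or 0.01 on the TMM scale, and 0.10 in naive colon, neither called. Acads, the dehydrogenase of short chains and so of butyrate, had 5441, 4632, 3904 and 4594 in DIEC DSS against 6054, 5270.5, 5599.8 and 5452 in F/F DSS. The DIEC values were lower in 3 libraries and overlapped in 1, with a log2 change of -0.28 ± 0.09 (adjusted p = 0.0274) on the deposited scale and -0.09, not called, on the TMM scale. Acad10, a dehydrogenase family member, was called lower in DSS colon (-0.34) on the deposited scale alone, and Acad11 was not called in either drink (0.11 in DSS and 0.01 in naive colon).

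Hadha and Hadhb encode the alpha and beta subunits of the mitochondrial trifunctional protein, which carries out the later reactions on long chains. The 2 genes lie head to head, and in the RefSeq promoter table their starts were 273 bases apart on opposite strands of chromosome 5, with 228 bases shared between the windows. The window of Hadha, chr5:30154931-30155230 on the minus strand of GRCm38.p6, is shown because most of it belongs to the start regions of both genes. On mm9 Hadha lies on chromosome 5 from 30444844 to 30481520, minus strand.
Hadha: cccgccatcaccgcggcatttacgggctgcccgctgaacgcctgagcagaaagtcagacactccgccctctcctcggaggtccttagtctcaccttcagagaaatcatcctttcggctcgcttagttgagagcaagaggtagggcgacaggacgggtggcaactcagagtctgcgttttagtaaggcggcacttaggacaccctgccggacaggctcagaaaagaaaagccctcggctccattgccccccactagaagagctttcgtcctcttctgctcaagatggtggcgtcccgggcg

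Hadha had 11308, 10565, 9422 and 11030.3 in DIEC DSS against 8832, 8859, 8850.4 and 8552 in F/F DSS libraries. Its naive values were 11969.7, 12136, 13995 and 12285 in DIEC against 9019.6, 10626, 9641 and 10452 in F/F. The genotypes did not overlap in either drink, and the log2 change was 0.27 ± 0.08 in DSS colon (adjusted p = 0.0131) and 0.34 ± 0.08 in naive colon (adjusted p = 0.0176). Hadhb had 689.9, 662, 602 and 766 in DIEC DSS against 554, 605, 578 and 534 in F/F DSS. In naive colon it had 878, 1012, 809 and 767 in DIEC against 666, 654, 590.0 and 664 in F/F. The lowest DIEC DSS library of Hadhb lay just under the highest F/F DSS library, and the naive groups stood apart. The log2 change of Hadhb was 0.26 ± 0.09 in DSS colon (adjusted p = 0.0461) and 0.42 ± 0.09 in naive colon (adjusted p = 0.0171), so both subunits were called higher in both drinks, but the call of Hadhb in DSS colon was lost in 13 of 27 other settings, among them the fit of the compared groups alone and 11 fits without 1 library.

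Decr1, the mitochondrial dienoyl-CoA reductase needed for polyunsaturated chains, had 2564, 2380.4, 2462 and 2481 in DIEC DSS against 2053, 2040.5, 2005 and 1926 in F/F DSS. The naive libraries had 3244, 3468, 3181 and 2769.6 in DIEC against 2648, 2372, 2288 and 2553 in F/F. Neither pair overlapped, with a log2 change of 0.30 ± 0.07 in DSS (adjusted p = 0.0041) and 0.36 ± 0.07 in naive colon (adjusted p = 0.00827). Acaa2, a thiolase of the spiral, had 5603, 6011, 4899 and 5057 in DIEC naive against 4042, 3904, 3327 and 3857 in F/F naive libraries. With DSS the values were 3993, 3341, 3114 and 3319 in DIEC and 3722, 3351, 3686 and 3386 in F/F. The naive groups stood apart and the DSS groups overlapped. Acaa2 was called in naive colon (log2 change 0.51 ± 0.09, adjusted p = 0.00258) and not in DSS colon, where the log2 change was -0.04, or 0.15 on the TMM scale. Hadh, the dehydrogenase of short 3-hydroxyacyl-CoA, was called higher in naive colon, with 9479, 9431, 9253 and 9059.5 in DIEC against 8402, 7263, 7045 and 8231 in F/F (log2 change 0.27 ± 0.07, adjusted p = 0.0339).

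Eci1 and Echs1 were lower in DIEC after DSS. Eci1, an enoyl-CoA isomerase for unsaturated chains, had 761, 662, 737 and 759 in DIEC DSS against 1015, 962, 1122 and 1056 in F/F DSS. In naive colon Eci1 had 1210.3, 1163, 1089.7 and 1136 in DIEC and 1287, 1175, 1146 and 1241 in F/F. All DIEC DSS libraries lay below all F/F DSS libraries, and the naive groups overlapped. The log2 change of Eci1 in DSS colon was -0.51 ± 0.07 (adjusted p = 9.49e-05) and -0.32 on the TMM scale (adjusted p = 0.00302), and with Acsl5 it was the gene called lower under both scalings. Echs1, the hydratase of short chains, had 3294, 3072, 3308 and 3063 in DIEC DSS against 4019, 3919, 3921 and 3955 in F/F DSS. These groups did not overlap, yet the log2 change of -0.31 ± 0.07 (adjusted p = 0.00238) became -0.12, not called, on the TMM scale. Eci2, a further enoyl-CoA isomerase, had a log2 change of -0.16 in DSS colon, or 0.03 on the TMM scale, and 0.14 in naive colon, neither called. Ech1, a dienoyl-CoA isomerase, had -0.03 in DSS colon, or 0.16 on the TMM scale, and 0.33 in naive colon, where it was called on the TMM scale alone (0.37, adjusted p = 0.0396).

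All 3 genes of electron transfer were called higher in DSS colon, and 2 of 3 in naive colon, where 3.28% and 1.41% of all genes were. Etfa and Etfb encode the alpha and beta subunits of the electron transfer flavoprotein, the common electron acceptor of the acyl-CoA dehydrogenases. The start region of Etfa, chr9:55512194-55512493 on the minus strand of GRCm38.p6 in RefSeq, is shown because it holds a DR1 with 2 mismatches. Capitals mark that match, which reads as a DR1 on the strand opposite to the one printed, and its first printed base is 77 bases before the transcript start. On mm9 the gene lies on chromosome 9 from 55302243 to 55360050, minus strand.
Etfa: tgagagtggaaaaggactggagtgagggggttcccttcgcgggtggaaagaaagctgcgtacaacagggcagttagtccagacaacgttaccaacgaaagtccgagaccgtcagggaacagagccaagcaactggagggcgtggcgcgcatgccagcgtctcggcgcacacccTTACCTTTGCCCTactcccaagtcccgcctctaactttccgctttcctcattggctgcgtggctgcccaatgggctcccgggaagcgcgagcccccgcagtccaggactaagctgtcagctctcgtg

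Etfa had 2896, 2946, 3069 and 2978 in DIEC DSS against 2442, 2499, 2414 and 2631 in F/F DSS libraries. The naive values were 3504, 3897, 3959.7 and 3361 in DIEC against 3114, 3044, 2911 and 2967 in F/F. The genotypes were apart in both drinks, and the log2 change was 0.25 ± 0.06 in DSS (adjusted p = 0.00657) and 0.29 ± 0.06 in naive colon (adjusted p = 0.018). Etfb had 4031, 4346, 4186 and 4121 in DIEC DSS against 3309, 3319.5, 3800.0 and 3818 in F/F DSS. For naive colon the Etfb values were 4331, 4418, 4652 and 4260.2 in DIEC against 3622, 3669.7, 3896 and 3809 in F/F. All 8 DIEC libraries of Etfb lay above all 8 F/F libraries. It was called in DSS colon (log2 change 0.23 ± 0.07, adjusted p = 0.0124) and, in naive colon, on the TMM scale alone (0.27, adjusted p = 0.0307, where the deposited scale gave 0.24 and adjusted p = 0.0679). Etfdh, the membrane oxidoreductase that hands these electrons to ubiquinone, had 3378, 2920.4, 3308 and 3456 in DIEC DSS against 2808, 2948, 2635 and 2658 in F/F DSS. In naive colon Etfdh had 4652, 5015, 4926 and 4527 in DIEC against 3537, 4014, 3524 and 3979 in F/F. The DSS groups overlapped and the naive groups did not, with a log2 change of 0.24 ± 0.07 in DSS (adjusted p = 0.0176) and 0.35 ± 0.07 in naive colon (adjusted p = 0.0116). The call of Etfdh in DSS colon was lost without DIEC DSS 4, F/F DSS 3 or F/F DSS 4. The changes of the 3 genes lay within 0.23 to 0.25 in DSS colon and 0.24 to 0.35 in naive colon.

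Of the 9 peroxisomal genes 4 were called higher and 2 lower in DSS colon, and 3 were called higher and 0 lower in naive colon, where limma had 0 lower at an unadjusted p under 0.05 and edgeR and DESeq2 called 0 lower. In DSS colon these are 44.4% higher, against 3.28% of all genes, and 22.2% lower, against 26.0%. In naive colon 33.3% were higher, against 1.41% of all genes, and 0.821% of all genes were lower. Abcd3 (PMP70), a transporter that imports acyl-CoA across the peroxisomal membrane, had the smallest adjusted p of all 39 genes in both genotype comparisons. Its start region in RefSeq, chr3:121815253-121815552 on the minus strand of GRCm38.p6, is shown for that reason, and it holds no DR1 with at most 2 mismatches. The table of promoters holds 2 windows for Abcd3, of which this is the upstream one. On mm9 the gene lies on chromosome 3 from 121461828 to 121518133, minus strand.
Abcd3: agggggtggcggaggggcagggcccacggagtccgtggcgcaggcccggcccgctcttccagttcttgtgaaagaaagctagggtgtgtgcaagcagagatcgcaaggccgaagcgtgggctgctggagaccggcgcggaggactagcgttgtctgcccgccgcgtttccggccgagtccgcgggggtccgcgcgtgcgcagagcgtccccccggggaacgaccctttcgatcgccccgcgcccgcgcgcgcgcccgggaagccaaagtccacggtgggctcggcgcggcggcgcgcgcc

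Abcd3 had 7316, 7570.1, 7714 and 8755 in DIEC DSS libraries, against 4116, 4573, 4698 and 4364 in F/F DSS libraries. In naive colon there were 8845, 9170.1, 10172 and 9439.7 in DIEC, against 5210.5, 5565, 6019 and 5816 in F/F. Again all 8 DIEC libraries lay above all 8 F/F libraries. The change was 1.76-fold in DSS (log2 change 0.82 ± 0.07, adjusted p = 9.81e-07) and 1.66-fold in naive colon (log2 change 0.74 ± 0.07, adjusted p = 1.49e-05).

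Ehhadh, the bifunctional hydratase and dehydrogenase of the inducible peroxisomal route, had 1635, 1680.3, 1749 and 1601 in DIEC DSS against 1394, 1566, 1428 and 1309.5 in F/F DSS. Its naive libraries had 2586, 2744, 2291 and 2405 in DIEC against 1739.5, 1691, 1552 and 1953 in F/F. The genotypes were apart in both drinks, with a log2 change of 0.23 ± 0.08 in DSS (adjusted p = 0.0372) and 0.53 ± 0.08 in naive colon (adjusted p = 0.000726). Phyh, the hydroxylase that starts alpha-oxidation of phytanoyl-CoA, had 4445, 4594, 5286 and 5031 in DIEC DSS against 4050.1, 4608, 4115 and 3840.1 in F/F DSS. In naive colon Phyh had 4789.5, 4537, 5219.7 and 4769.8 in DIEC against 4007, 3637, 3686 and 4060.4 in F/F. The DSS groups overlapped and the naive groups did not, and the log2 change was 0.22 ± 0.08 in DSS (adjusted p = 0.0347) and 0.33 ± 0.08 in naive colon (adjusted p = 0.0232). Hacl1, the lyase of the same alpha-oxidation route, ran the other way in DSS colon, with 166, 118, 161 and 128 in DIEC against 223, 193, 174 and 201 in F/F. Its groups did not overlap (log2 change -0.47 ± 0.14, adjusted p = 0.0163), but the TMM scale gave -0.28 and no call (adjusted p = 0.198), and in naive colon the log2 change was 0.00, not called.

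Acaa1a and Acaa1b are peroxisomal thiolases encoded by near-identical copies. Their transcripts were 96.0% identical over 1450 aligned bases with an unbroken run of 327, so reads may be assigned to either and both values are uncertain. Acaa1b was counted with 5, 4, 4 and 6 reads in DIEC DSS against 5, 1, 1 and 2 in F/F DSS libraries, and with 5, 14, 5 and 9 in DIEC naive against 8, 8, 12 and 12 in F/F naive. These counts are near the limit of detection, the groups overlapped in both drinks, and the call in DSS colon (log2 change 1.04 ± 0.38, adjusted p = 0.0439) was lost in 15 other settings, among them DESeq2 and a pseudocount of 5, and edgeR's filter dropped the gene. Acaa1a had a log2 change of 0.07 in DSS and 0.25 in naive colon, neither called. Decr2, the peroxisomal dienoyl-CoA reductase, was called lower in DSS colon on the deposited scale alone (-0.21, and -0.01 on the TMM scale). Pex11a, which takes part in peroxisome division, had a log2 change of 0.23 in DSS and 0.30 in naive colon, called on the TMM scale alone and in DSS colon alone (0.42, adjusted p = 0.03). Hsd17b4, the second bifunctional enzyme, was not called in either drink (-0.11 in DSS, or 0.08 on the TMM scale, and 0.08 in naive colon).

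The thioesterases Acot1 (cytosolic) and Acot2 (mitochondrial) release fatty acids from coenzyme A. Acot2 had 166, 208, 172 and 154 in DIEC DSS against 102, 111, 92.2 and 87.5 in F/F DSS libraries. The naive values were 150.3, 120.1, 181 and 136 in DIEC against 85.3, 76.2, 105 and 94.0 in F/F. All 8 DIEC libraries lay above all 8 F/F libraries, and the change was 1.77-fold in DSS (log2 change 0.83 ± 0.15, adjusted p = 0.000618) and 1.62-fold in naive colon (log2 change 0.69 ± 0.15, adjusted p = 0.0149). Acot1 had 43.8, 25.4, 34.8 and 38.3 in DIEC DSS against 19.1, 15.3, 23.9 and 37.1 in F/F DSS. In naive colon Acot1 had 120.4, 84.6, 165 and 94.1 in DIEC against 56.2, 76.2, 73.2 and 66.1 in F/F. The naive groups stood apart and the DSS groups overlapped, and neither log2 change was called on the deposited scale (0.60 ± 0.25 in DSS, with adjusted p = 0.0813, and 0.73 ± 0.25 in naive colon, with adjusted p = 0.17), while the TMM scale called the DSS change (0.79). Transcripts of the pair were 94.3% identical over 1330 aligned bases with an unbroken run of 273, so reads of these copies may also be split wrongly.

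Of the 39 genes, 12 were called higher in DIEC in both drinks and under both scalings: Slc25a20, Cpt2, Acadl, Hadha, Hadhb, Decr1, Etfa, Etfdh, Ehhadh, Abcd3, Phyh and Acot2. On the deposited scale they make up 70.6% of the 17 called higher in naive and 85.7% of the 14 called higher in DSS colon. Among all genes 176 were called higher in both on the deposited scale, or 68.2% of 258 in naive and 29.4% of 599 in DSS colon. The 2 comparisons have no library in common. Of the 12, Slc25a20, Cpt2, Acadl and Abcd3 kept the call in both drinks in all 27 other settings, in which the scaling, the filter, the pseudocount, the test or the set of libraries was changed.

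Without the 4 naive libraries with over 0.1% acinar reads, which leaves 2 libraries a group in naive colon, these same 4 were the only members called higher there. For each of the 17 all DIEC naive libraries lay above all F/F naive libraries, so a change above 0 in that fit was fixed in advance. Their median log2 change there was 0.39 against 0.42 with all libraries, with a range from 0.23 to 0.95. Single libraries also carried some calls. Leaving out F/F naive 3 lowered the 17 naive calls to 9, losing Slc22a5, Acadvl, Hadha, Hadhb, Hadh, Etfa, Etfdh and Phyh. In DSS colon leaving out F/F DSS 3 lowered the 14 higher calls to 9, and the 8 lower calls became 4 without F/F DSS 1 and 5 without DIEC DSS 3. Without DIEC DSS 3, the library apart on the second component, 12 were called higher. When the libraries were scaled to 15 general mitochondrial genes instead of the total, 8 members were called higher in DSS colon (Slc25a20, Cpt2, Acadl, Hadha, Decr1, Etfa, Abcd3 and Acot2) and 8 in naive colon (Cpt1a, Slc25a20, Cpt2, Acadl, Acaa2, Ehhadh, Abcd3 and Acot2).

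Other genes of the same organelles were examined too. For the counts of these lists, 3.28% of all genes tested were called higher and 26.0% lower in DSS colon. In naive colon 1.41% were called higher and 0.821% lower. Of 15 general mitochondrial genes, such as Cs, Sdha and Vdac1, limma called 0 higher and 3 lower in DSS colon (Tomm20, Tfam and Idh3a) and 0 in naive colon. On the TMM scale limma called 4 higher and 2 lower in DSS colon, or 26.7% higher against 6.69% of all genes, and 0 in naive colon. At an unadjusted p under 0.05 on the deposited scale limma had 0 higher in DSS and 3 in naive colon, edgeR called 4 higher in DSS and 0 in naive colon, and DESeq2 called 6 and 0. Their median log2 change was -0.03 in DSS, or 0.16 on the TMM scale, and 0.08 in naive colon. Of 15 genes of peroxisome biogenesis 0 were called higher and 9 lower in DSS colon, among them Pex26 (-0.57) and Pex10 (-0.44), and 2 lower on the TMM scale. No tool called any of the 15 higher in DSS colon, and limma had 0 higher there at an unadjusted p under 0.05. In naive colon limma called 0 of them, with 1 higher and 1 lower at an unadjusted p under 0.05, and edgeR and DESeq2 called 0.

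Of 16 further genes of peroxisomal oxidation tested, 2 were called higher in DSS colon, among them Acot8 (log2 change 0.32 ± 0.07, adjusted p = 0.00131), a peroxisomal thioesterase. In the same comparison 8 were called lower, with the smallest adjusted p for Eci3 (-0.56), an isomerase, and Nudt7 (-0.37), which cleaves coenzyme A, and 2 were lower on the TMM scale. In naive colon limma called 0 of the 16, with 3 higher at an unadjusted p under 0.05, while edgeR called 1 higher and DESeq2 2. A list of 12 further genes covered the mitochondrial spiral and the propionate route, together with genes of neither, such as Mcat. Of these 12, 0 were called higher and 5 lower in DSS colon, with the smallest adjusted p for Hsd17b10 (-0.49), Mcat (-0.39) and Pcca (-0.31), and 1 lower on the TMM scale. For the higher calls there limma had 0 at an unadjusted p under 0.05 and edgeR and DESeq2 called 0. In naive colon 1 of the 12 was called lower, the mitochondrial thioesterase Acot9 (log2 change -0.38 ± 0.08, adjusted p = 0.0149).

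Of 7 genes of carnitine synthesis and malonyl-CoA control tested, 1 was called higher in both drinks. This was Acacb, the mitochondrial acetyl-CoA carboxylase whose product malonyl-CoA inhibits Cpt1a, with a log2 change of 1.07 ± 0.16 in DSS (adjusted p = 0.000177) and 0.94 ± 0.16 in naive colon (adjusted p = 0.00262). Of 11 further genes of fatty acid uptake and activation, 0 were called higher and 4 lower in DSS colon, with the smallest adjusted p for Slc27a1, a fatty acid transport protein (-0.39), Acsf2 (-0.44) and Acsm3 (-0.55), acyl-CoA synthetases of mitochondria. For the higher calls limma had 1 at an unadjusted p under 0.05 and edgeR and DESeq2 called 0, and on the TMM scale 0 were lower, with 4 at an unadjusted p under 0.05. In naive colon limma called 0 of the 11, with 1 higher and 1 lower at an unadjusted p under 0.05, and edgeR and DESeq2 called 1 higher each. Of 15 receptors and coregulators of the pathway, Ncor1 included, 3 were called higher and 6 lower in DSS colon, and 2 higher and 1 lower in naive colon. On the TMM scale 3 of the 15 were higher and 2 lower in DSS colon, and 2 higher and 1 lower in naive colon. Among them Tbl1xr1, a subunit of the NCoR complex, was higher in both drinks (0.80 ± 0.08 in DSS and 1.01 ± 0.08 in naive colon), with adjusted p = 1.64e-06 and adjusted p = 3.58e-07. Tbl1x, its close relative, also rose, by 0.35 ± 0.10 in DSS (adjusted p = 0.011) and 0.67 ± 0.10 in naive colon (adjusted p = 0.000532). Ppara, the receptor best known for driving fatty acid oxidation, was lower in DIEC after DSS (log2 change -0.74 ± 0.12, adjusted p = 0.000227) and had a log2 change of 0.14 in naive colon, not called (adjusted p = 0.62).

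DSS moved genes of the pathway in both directions. Crat, Cpt1a, Cpt2, Acadl and Acaa1a rose in both genotypes, and Crot, Acsl5, Eci2, Echs1, Etfdh, Hsd17b4 and Acot1 were among those that fell in both. In DIEC colon 6 of the 39 genes were called higher with DSS, or 15.4%, against 12.3% of all genes, and 24 lower, or 61.5%, against 40.0% of all genes. In F/F colon 8 were called higher, or 20.5%, against 16.3% of all genes, and 16 lower, or 41%, against 28.5%. On the TMM scale the counts were 12 higher and 13 lower in DIEC, against 25.1% and 26.2% of all genes, and 9 higher and 11 lower in F/F, against 22.8% and 22.5%. Under both scalings 6 were higher and 13 lower in DIEC (12.3% and 26.3% of all genes) and 8 higher and 11 lower in F/F (16.3% and 22.6%). The share of members called higher thus lay close to that of all genes, and the share called lower was above it on the deposited scale. The DSS libraries lay all above the naive ones for 5 members in DIEC and 8 in F/F, where 9.59% and 15.5% of all genes did, and all below for 24 in DIEC and 16 in F/F, where 35.9% and 27.4% did. The authors' deposited table has 8 higher and 12 lower with DSS in DIEC, and 8 higher and 7 lower in F/F, at an adjusted p under 0.05. Over both genotypes 5 members were called higher in both, 15 lower in both and 6 in neither. The matching counts over all genes were not taken, neither for this overlap nor for the authors' table. These counts are therefore not read as particular to the members.

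**Figure D3:**
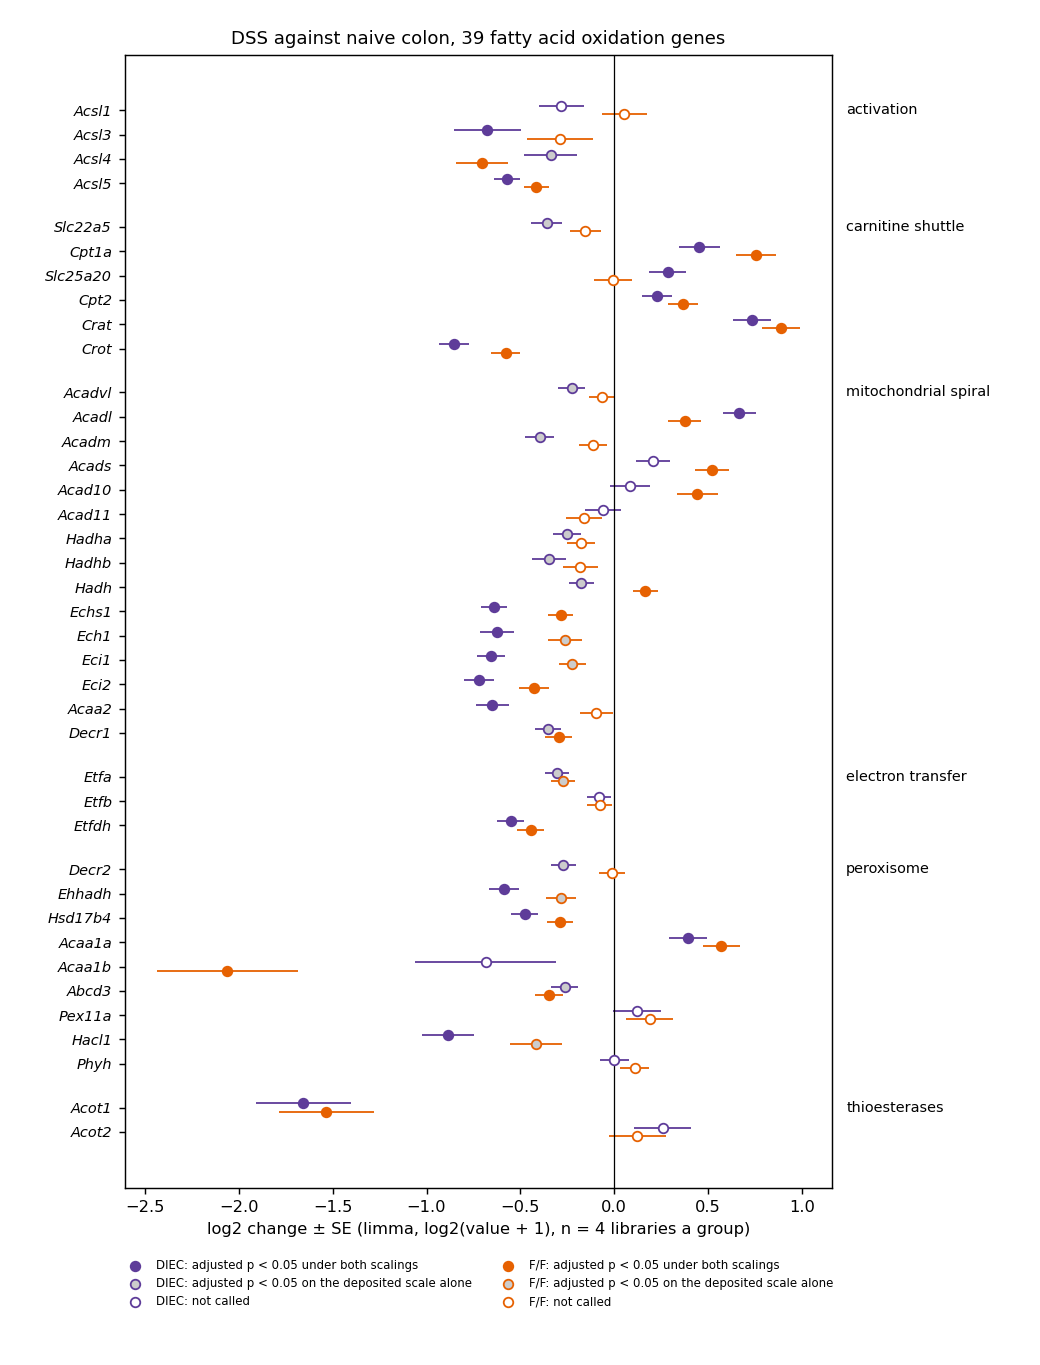
Log2 change of the 39 genes between DSS and naive colon, grouped by step, in DIEC (purple) and F/F mice (orange); points are limma estimates from 4 libraries a group and bars are standard errors. Filled points were called under both scalings, and Crat, Cpt1a, Cpt2, Acadl and Acaa1a lie right of 0 in both genotypes, whereas Crot, Acsl5, Eci2, Hsd17b4 and Acot1 lie left of 0 in both.

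Marker lists of other cell types moved with DSS. The summed level of 8 adipocyte markers was 1021 to 2602 in DIEC DSS against 3381 to 4264 in DIEC naive libraries, and 862 to 1565 in F/F DSS against 2033 to 4604 in F/F naive, with 6 of 8 called lower in DIEC and 7 of 8 in F/F. All 8 acinar markers were called lower in both genotypes, and with DSS Pnlip was at 0 in both genotypes and Cpa1 in F/F. Smooth muscle sums were 252731 to 312701 in DIEC DSS against 155984 to 183269.9 in DIEC naive, and 255089 to 319033 in F/F DSS against 185838 to 245336 in F/F naive, with 8 of 8 called higher in DIEC and 7 of 8 in F/F. Of the 8 epithelial markers 6 were called higher in DIEC and 4 in F/F. Colonocyte markers had 4 of 8 called higher and 0 lower in DIEC, and 4 higher and 2 lower in F/F. Immune markers had 3 of 8 called lower and 0 higher in each genotype. Immune sums overlapped in DIEC, and in F/F they were 3552.5 to 5034.4 with DSS against 5469 to 7061.1 without. The part of these tissues and cell types in the DSS response of the pathway was not tested, apart from the fit without the naive libraries with acinar reads.

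In the shuttle Crat, Cpt1a and Cpt2 rose. Crat had 2818, 3065, 2783 and 2519 scaled reads in DIEC DSS against 1593, 1472, 1711 and 1963 in DIEC naive libraries. In F/F mice it had 2936, 3345, 3026 and 2589.6 with DSS against 1698, 1402, 1514 and 1814 without. All 8 DSS libraries lay above all 8 naive libraries, and the log2 change was 0.74 ± 0.10 in DIEC (adjusted p = 5.14e-06) and 0.89 ± 0.10 in F/F (adjusted p = 2.45e-06). Cpt1a rose in both, with a log2 change of 0.45 ± 0.11 in DIEC (adjusted p = 0.00152) and 0.76 ± 0.11 in F/F (adjusted p = 2.14e-05). Cpt2 had a log2 change of 0.23 ± 0.08 in DIEC and 0.37 ± 0.08 in F/F, with adjusted p = 0.0221 in DIEC and adjusted p = 0.00108 in F/F. Without the acinar-positive naive libraries Cpt1a, Slc25a20 and Cpt2 lost the call in DIEC. Slc25a20 rose in DIEC (log2 change 0.29 ± 0.10, adjusted p = 0.0204) and had a log2 change of -0.01 in F/F, with adjusted p = 0.971. Crot had 1671, 1793, 1562 and 1529.8 in DIEC naive and 1815, 1602, 1567 and 1755 in F/F naive libraries, all above the 8 DSS libraries given earlier. It fell in both genotypes, and its log2 change was -0.85 ± 0.08 in DIEC and -0.58 ± 0.08 in F/F, and -0.60 and -0.48 on the TMM scale. Slc22a5 was called lower in DIEC after DSS on the deposited scale alone (-0.36, and -0.11 on the TMM scale), and in F/F it was not called (-0.15).

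Among the synthetases Acsl5 fell in both genotypes and under both scalings, with a log2 change of -0.57 ± 0.07 in DIEC (adjusted p = 9.99e-07) and -0.41 ± 0.07 in F/F (adjusted p = 7.84e-05). Acsl4 had 522, 521, 727 and 563 in F/F DSS against 1008, 772, 924 and 1093 in F/F naive, without overlap (log2 change -0.70 ± 0.14, adjusted p = 0.000451). In DIEC it had 589, 485, 601 and 747 with DSS against 723, 653, 789 and 882 without, which overlapped, and its call there (adjusted p = 0.0482) was lost on the TMM scale. Acsl3 had 8285, 5918, 8506 and 10475 in DIEC DSS, against the naive DIEC values given above, and was called lower in DIEC (log2 change -0.68 ± 0.18, adjusted p = 0.00424) under both scalings. In F/F it had 10078, 7344, 7244 and 6843 with DSS, its groups overlapped and it was not called (log2 change -0.29). Acsl1 was called in neither genotype (-0.28 in DIEC and 0.06 in F/F).

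In the spiral Acadl rose in both genotypes, with a log2 change of 0.67 ± 0.09 in DIEC (adjusted p = 3.47e-06) and 0.38 ± 0.09 in F/F (adjusted p = 0.00188). Acads had 4188, 3457, 4203 and 4171 in DIEC naive and 3694, 3793, 3926 and 4186 in F/F naive libraries. It rose in F/F (log2 change 0.52 ± 0.09, adjusted p = 0.00014), where the DSS libraries given above all exceeded the naive ones, and in DIEC the log2 change of 0.21 was called on the TMM scale alone (0.46, adjusted p = 9.18e-05). Acad10 rose in F/F (log2 change 0.44 ± 0.11, adjusted p = 0.0024) and had 0.09 in DIEC, called on the TMM scale alone. The isomerases and the hydratase fell. Eci2 had 888, 791, 767 and 777 in DIEC DSS against 1419, 1387, 1235 and 1266 in DIEC naive. In F/F mice Eci2 had 974, 877, 819 and 924 with DSS against 1303, 1242, 1156 and 1128 without. All 8 DSS libraries of Eci2 lay below all 8 naive libraries, with a log2 change of -0.72 ± 0.08 in DIEC (adjusted p = 3.84e-07) and -0.43 ± 0.08 in F/F (adjusted p = 0.000232). Echs1 fell under both scalings, with a log2 change of -0.64 ± 0.07 in DIEC and -0.29 ± 0.07 in F/F and with naive values of 5221, 5259, 4807 and 4598 in DIEC and 5252, 4675, 4384 and 5008 in F/F. Eci1 fell under both scalings in DIEC (log2 change -0.66 ± 0.07, adjusted p = 4.29e-07), and in F/F on the deposited scale alone (-0.22, and -0.12 on the TMM scale). The same held for Ech1 (-0.63 in DIEC and -0.26 in F/F). Acaa2 fell under both scalings in DIEC (log2 change -0.65 ± 0.09, adjusted p = 4.27e-06) and was not called in F/F. Acadvl, Acadm, Hadha, Hadhb and Decr1 were called lower in DIEC on the deposited scale alone, at -0.23, -0.40, -0.25, -0.35 and -0.35, while on the TMM scale Acadvl turned to 0.03 and Hadha lay at 0.003. Of these 5 genes Decr1 alone was called in F/F, and there under both scalings (log2 change -0.30 ± 0.07, adjusted p = 0.00231). Acad11 was called in neither genotype (-0.06 in DIEC and -0.16 in F/F).

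In electron transfer Etfdh fell in both genotypes and under both scalings, with a log2 change of -0.55 ± 0.07 in DIEC (adjusted p = 3.02e-06) and -0.45 ± 0.07 in F/F (adjusted p = 6.91e-05). Etfa was called lower in both on the deposited scale (-0.31 in DIEC and -0.27 in F/F) and in neither on the TMM scale (-0.05 in DIEC and -0.17 in F/F). Etfb had a log2 change of -0.08 in DIEC and -0.08 in F/F, neither called, and on the TMM scale the sign turned in both, to 0.17 in DIEC, which was called (adjusted p = 0.0352), and 0.02 in F/F.

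Of the peroxisomal genes Acaa1a rose in both genotypes. It had 2672, 2562, 1978 and 2255 in DIEC DSS against 1915, 1578, 1904 and 1785 in DIEC naive. The F/F libraries had 2331, 2342, 2371 and 1939 with DSS against 1626, 1342, 1452 and 1622 without. All 8 DSS libraries lay above all 8 naive libraries, and the log2 change was 0.39 ± 0.10 in DIEC (adjusted p = 0.00252) and 0.57 ± 0.10 in F/F (adjusted p = 0.000139). Hsd17b4, the D-bifunctional protein, fell in both, with 1878, 1651, 1705 and 1886 in DIEC DSS against 2362, 2290.2, 2638 and 2624 in DIEC naive. In F/F it had 1979, 1804, 1862 and 2019 with DSS against 2253, 2261, 2367 and 2476 without. All 8 DSS libraries lay below all 8 naive libraries, with a log2 change of -0.48 ± 0.07 in DIEC (adjusted p = 1.26e-05) and -0.29 ± 0.07 in F/F (adjusted p = 0.00264). Ehhadh fell under both scalings in DIEC (log2 change -0.59 ± 0.08, adjusted p = 4.64e-06) and on the deposited scale alone in F/F (-0.28, and -0.18 on the TMM scale). Hacl1 had 291, 300.3, 252 and 217 in DIEC naive and 305, 239, 245 and 265 in F/F naive libraries, and it fell under both scalings in DIEC (log2 change -0.89 ± 0.14, adjusted p = 2.39e-05) and on the deposited scale alone in F/F (-0.42). Abcd3 was called lower in both on the deposited scale (-0.26 in DIEC and -0.35 in F/F), and on the TMM scale in F/F (-0.25) but not in DIEC (-0.01). Acaa1b was called lower in F/F (-2.06, from the few reads given above) and had -0.69 in DIEC, not called. Decr2 was called lower in DIEC on the deposited scale alone (-0.27), and Pex11a and Phyh were called in neither genotype on that scale.

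The thioesterase Acot1 fell in both genotypes, to 25.4 to 43.8 in DIEC DSS against 84.6 to 165 in DIEC naive and to 15.3 to 37.1 in F/F DSS against 56.2 to 76.2 in F/F naive. Its log2 change was -1.66 ± 0.25 in DIEC (adjusted p = 1.83e-05) and -1.54 ± 0.25 in F/F (adjusted p = 8.37e-05). Acot2, its near copy, had 0.26 in DIEC and 0.12 in F/F, neither called on the deposited scale.

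With DSS 12.3% of all genes were called higher and 40.0% lower in DIEC, and 16.3% and 28.5% in F/F. On the TMM scale these shares were 25.1% and 26.2% in DIEC, and 22.8% and 22.5% in F/F. Of the 12 further genes listed with the mitochondrial spiral and the propionate route 9, or 75%, were called lower with DSS in each genotype, and 1 was called higher in F/F. The TMM scale had 9 lower and 1 higher in DIEC, and 8 lower and 2 higher in F/F. Mut, the methylmalonyl-CoA mutase, had a log2 change of -0.95 in DIEC and -0.78 in F/F, and Hsd17b10, a mitochondrial dehydrogenase, -0.97 in DIEC and -0.54 in F/F. Of 15 genes of peroxisome biogenesis 10 were called lower and 1 higher in DIEC, and 6 lower and 3 higher in F/F, with Pex3 at -0.96 in DIEC and -0.65 in F/F. TMM scaling gave 8 lower and 4 higher in DIEC, and 4 lower and 4 higher in F/F. Of 11 genes of uptake and activation 5, or 45.5%, were called lower in each genotype, and 2 were called higher in DIEC and 3 in F/F. The share called lower in DIEC lay near that of all genes on the deposited scale. With TMM scaling 5 were lower in each genotype, and 3 were higher in DIEC and 4 in F/F. Fabp2, a fatty acid binding protein of the intestine, was at -3.55 in DIEC and -2.40 in F/F. Slc27a2, a very long chain acyl-CoA synthetase, was at -2.46 in DIEC and -1.80 in F/F. Of the 15 receptors and coregulators 4 were called higher and 7 lower in DIEC, and 8 higher and 1 lower in F/F. This difference between the genotypes depended on the scaling. TMM scaling gave 6 higher and 2 lower in DIEC, and 9 higher and 1 lower in F/F. Ppard was called higher in both genotypes (0.65 in DIEC and 0.62 in F/F), and so was Esrra (0.53 in DIEC and 0.58 in F/F).

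The DSS response differed between the genotypes for 4 of the 39 genes, all in the spiral: Hadh, Echs1, Eci1 and Acaa2. This is 10.3% of the members, against 3.34% of all genes with a lower response in DIEC. For Acaa2 the log2 change with DSS was -0.65 ± 0.09 in DIEC and -0.10 ± 0.09 in F/F, a difference of -0.55 ± 0.12 (adjusted p = 0.0245). The difference was -0.43 ± 0.10 for Eci1 (adjusted p = 0.0308) and -0.36 ± 0.10 for Echs1 (adjusted p = 0.0472). Hadh had 8062, 8218, 8617 and 8112 in DIEC DSS, and 8657, 8458, 8917 and 8584 in F/F DSS libraries, so that it fell in DIEC (-0.17) and rose in F/F (0.17, adjusted p = 0.0483, a call lost in most fits that left out 1 library) on the deposited scale, while on the TMM scale the change in DIEC turned to 0.08 and was not called. The difference for Hadh was -0.34 ± 0.09 (adjusted p = 0.04996). Limma called 0 of the 39 with a higher response in DIEC, against 0.29% of all genes, with 2 at an unadjusted p under 0.05, and edgeR and DESeq2 called 0. The 4 lower calls depended on the scaling: on the TMM scale limma called 0, against 0.377% of all genes, with 2 lower at an unadjusted p under 0.05, edgeR called 0 and DESeq2 called 1, and the TMM differences were -0.40, -0.28, -0.20 and -0.19 for Acaa2, Eci1, Echs1 and Hadh. They were also sensitive to single libraries, with 0 calls without F/F naive 3, F/F DSS 1, F/F DSS 3, DIEC naive 1 or DIEC DSS 2, 1 call without F/F naive 2 or F/F DSS 4, and 2 calls without DIEC naive 2, DIEC naive 3, DIEC DSS 3 or DIEC DSS 4. For none of the 12 genes higher in DIEC in both drinks was the difference between the responses called by limma. It was 0.29 ± 0.14 for Slc25a20 (adjusted p = 0.223), 0.29 ± 0.13 for Acadl (adjusted p = 0.172) and 0.08 ± 0.11 for Abcd3 (adjusted p = 0.692). Acaa1b, with its few reads, had the largest difference of all at 1.38 ± 0.53 (adjusted p = 0.135).

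**Figure D4:**
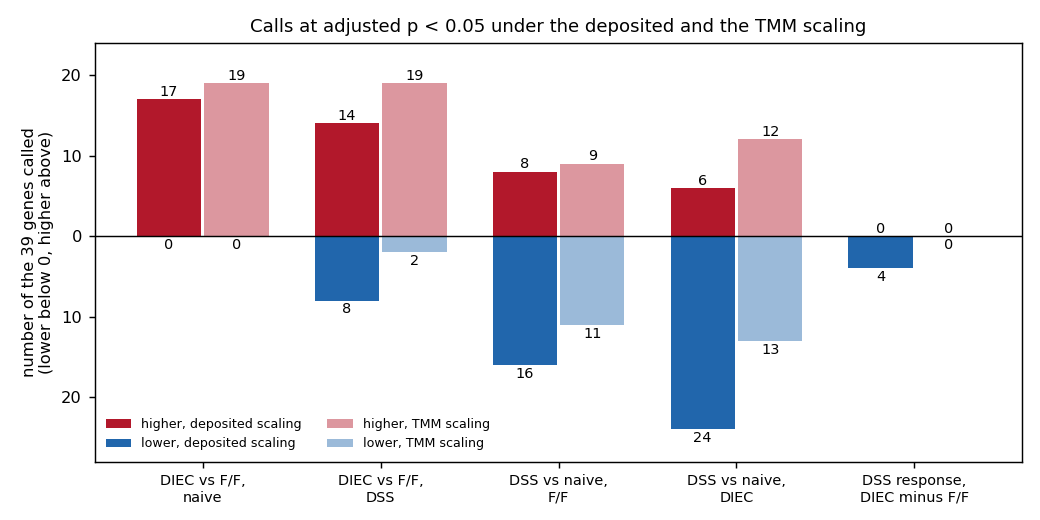
Number of the 39 genes called higher (above 0) and lower (below 0) in each comparison, with the deposited scaling in full colour and the TMM scaling in pale colour. The counts of higher calls in DIEC against F/F colon are 14 and 19 in DSS and 17 and 19 in naive colon, whereas the lower calls in DSS colon go down to 2 with TMM, and the 4 differences between DSS responses to 0.

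Per kilobase of exon, the members differed widely in level. In naive colon Ech1 was highest, at 7320 ± 1100 scaled reads per kb in DIEC and 5780 ± 408 in F/F (mean ± SD, n = 4), and Acaa1b was lowest, at 5.13 ± 1.88 in DIEC and 6.53 ± 1.8 in F/F. In the order of F/F naive levels, Ech1 was followed by Hadh (4350), Etfb (4180), Slc25a20 (3800) and Echs1 (3260), and 27 of the 38 neighbouring pairs overlapped between libraries. Ech1 did not overlap with Hadh, while Hadh, Etfb and Slc25a20 each overlapped with the next in this order. The order differed after DSS in DIEC, where Slc25a20 had the highest level of the 39 genes at 7670 ± 503 and Acadl the second at 5940 ± 353. In F/F DSS colon Slc25a20 had 3760 ± 405 and Acadl 3260 ± 267. The subunits of the trifunctional protein were far apart, with Hadha at 3300 in DIEC naive and 2610 in F/F naive, and Hadhb at 422 in DIEC naive and 313 in F/F naive. Lengths are those of the table's single gene model per gene, so a model that is longer than the transcript in colon lowers the level per kb. The gene model of Acsl3 overlaps Utp14b on the same strand, and that of Acad11 overlaps Ackr4 over 28506 bases on the opposite strand, and reads there may be counted for the wrong gene.

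**Figure D5:**
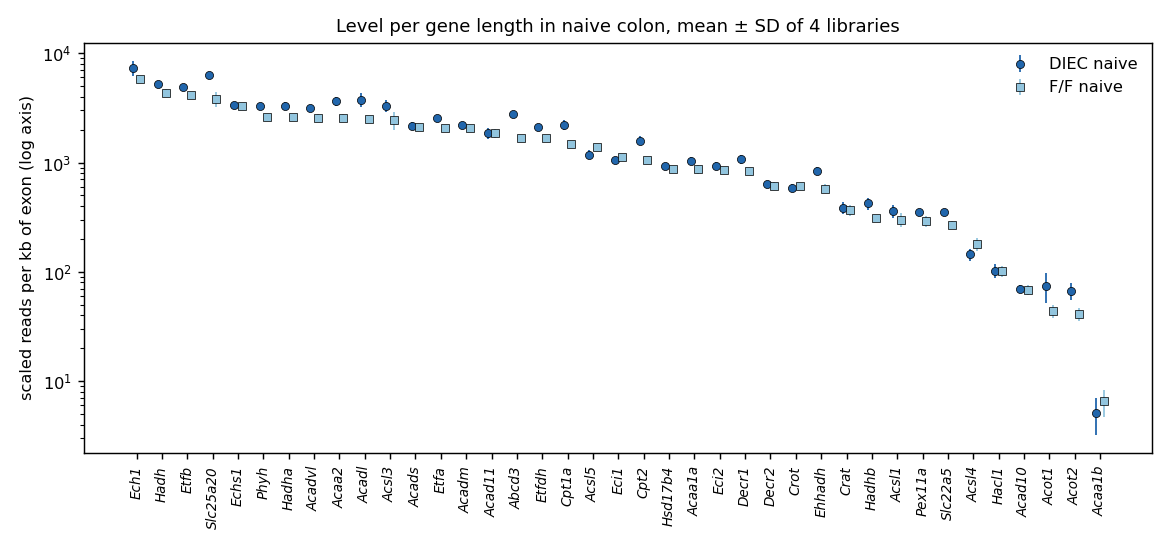
Level of each of the 39 genes per kb of exon in DIEC naive (circles) and F/F naive colon (squares), as the mean ± SD of 4 libraries on a log axis, ordered by the F/F naive mean. Ech1 stands first and Acaa1b last, and the circle of Slc25a20 lies above all squares, at 6290 scaled reads per kb.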

How the data were processed

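RNA of 16 colon libraries was measured, 4 each of DIEC DSS, F/F DSS, DIEC naive and F/F naive, grouped by the labels' titles. Per the submitters' processing notes, bcl2fastq, STAR 2.2.0c and HOMER 4.9 were used and mm10 is named, whereas the file headers give mm9 gene models with raw counts over exons. No source used here settles this difference. The deposited values are a signal scaled by the authors: each library's reads were divided by 1 factor, and whole reads could be recovered for all 16 libraries, with 100.0% of values whole within 0.01 plus the rounding of large values. The authors' deposited log2 fold changes and adjusted p-values were used for counts of called genes alone. Libraries held 19957413 to 34733832 reads on genes, and values of few reads are imprecise by counting alone. The library kit does not mark strand, so reads of overlapping genes on opposite strands cannot be told apart.

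For the results here, log2(value + 1) was taken for the 18267 genes that reached 1 in 4 or more libraries and was fitted with limma 3.58.1 in R 4.3.3 (trended, robust), with 1 mean per group over all 16 libraries and Benjamini-Hochberg adjustment over all genes at 0.05. Log2 changes of low genes are understated on this scale. In all, 5 sets of changes were taken: DIEC against F/F in DSS and in naive colon, DSS against naive in each genotype, and the difference between the DSS responses. The alternatives were a pseudocount of 0.5 or 5, no filter or a filter at 10, TMM scaling, edgeR 4.0.16 (quasi-likelihood) and DESeq2 1.42.0 on the recovered reads, a replicate block, the compared groups alone and each library left out. After the data had been seen, a fit without naive libraries over 0.1% acinar reads and a scaling to general mitochondrial genes were added. The fits were tested on simulated data. The 39 genes, the other gene lists and the marker lists were chosen with earlier results of these data known. In each comparison and step the up to 3 called members with the smallest adjusted p and the member with the largest change are given by library, and values of further members were added after they were seen. Outside the members, up to 3 called genes a list are named, again by adjusted p (2 genes that this rule or a short count would name are not reported here), and the motifs and printed promoters (RefSeq, GRCm38.p6) were chosen after the values were seen. Of the 39 genes all passed the filter on low values. The labels do not say that replicates came from separate experiments, so p-values measure the spread between pools of 3 mice.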

Additional observations from a re-analysis of the deposited data

Results flagged for a closer look

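Among the 156 sets of 4 libraries (39 genes in 4 groups), 8 held 1 library far from the other 3, where chance flags about 1 in 20 sets. Acadl had 12513.0 scaled reads in DIEC DSS 2, against 11103 to 11184 in the other DIEC DSS libraries. For Hadha, DIEC naive 3 had 13994.6, against 11969.7 to 12284.8 in the rest of its group, and F/F DSS 4 had 8552.3, against 8832 to 8859. DIEC naive 2 was low for Acads, at 3456.8 against 4171 to 4203, and for Acad10, at 218.4 against 259 to 266. Acsl3 had 10078.3 in F/F DSS 1, against 6843 to 7344 in the other F/F DSS libraries. Acaa1a had 1939.1 in F/F DSS 4, against 2331 to 2371, and Hadhb had 590.0 in F/F naive 3, against 653.5 to 665.9.

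The DSS response in DIEC minus that in F/F mice was below 0 and called for 4 genes of the mitochondrial spiral on the deposited scale. It was -0.554 on the log2 scale for Acaa2, -0.433 for Eci1, -0.356 for Echs1 and -0.339 for Hadh.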

How the results depend on the processing

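In DSS colon the 8 genes called lower in DIEC became 2 with TMM scaling, with edgeR and with DESeq2. For DSS in DIEC the same 3 settings gave 12 higher (main 6) and 13 lower (main 24), and the 4 lower differences between the DSS responses became 0, 0 and 1. In naive colon DESeq2 and the mitochondrial scaling called 1 gene lower (main 0). Scaled to general mitochondrial genes, 8 genes were higher in DIEC in naive (main 17) and 8 in DSS colon (main 14), and 0 differences were left. Without the naive libraries over 0.1% acinar reads, 4 were higher in DIEC naive, 3 higher with DSS in DIEC, and 0 differences were left; fewer libraries entered that fit. The causes of the other shifts were not tested.

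Counting changes called in the main fit or in the other fit, signs turned for 4 genes with DSS in DIEC. Acadvl turned to 0.028 (TMM), 0.026 (edgeR) and 0.034 (DESeq2), and Hadha to 0.003 (TMM) and 0.006 (DESeq2). Hadh turned to 0.081 (TMM), 0.081 (edgeR) and 0.088 (DESeq2), and Etfb to 0.173, 0.172 and 0.179. Changes called in neither fit could turn too, such as Acad11 with DSS in DIEC, from -0.061 to 0.193 on the TMM scale. Of all gene values recomputed, 4840 stayed called in the same direction or stayed uncalled, the latter without regard to sign. Of the rest, 291 lost and 72 gained the call and 11 turned.

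Leaving out 1 library gave 9 to 17 genes higher and 0 to 1 lower in naive DIEC (1 without DIEC naive 3), 9 to 15 higher and 4 to 8 lower in DSS DIEC, 7 to 8 higher and 14 to 16 lower with DSS in F/F, 4 to 7 higher and 22 to 25 lower with DSS in DIEC, and 0 to 4 lower differences. The labels number replicates 1 to 4 in each group. The 16 correlations of same-numbered deviations ran from -0.148 to 0.232, and 4 libraries correlated best with their own number. The 2 over 0.1 were those of replicates 1 (0.232) and 2 (0.212) in DIEC DSS against F/F DSS. Low correlations cannot show that libraries were not handled in pairs. With the replicate block 18 genes were higher and 0 lower in naive DIEC, 13 higher and 8 lower in DSS DIEC, 7 higher and 16 lower with DSS in F/F, 6 higher and 25 lower with DSS in DIEC, and 4 differences were lower. Depth limits Acaa1b, with at most 14 reads a library.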
